A study of Mus musculus with 8 samples.

Results

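A set of 10 genes, named as brakes on NF-κB signalling or grouped with them, was followed through 8 RNA-seq libraries of bone marrow-derived macrophages (BMDMs). They are Tnfaip3, Tnip1, Tnip2, Tnip3, Zc3h12a, Cyld, Irak3, Zfp36, Tnfaip2 and Gpr132. They were taken by symbol from the deposited gene-level tables, which list 53735 genes. All 10 were among the 14418 genes with enough counts to be tested. The macrophages were grown for 7 days from bone marrow of 6-month-old male mice that had received angiotensin II (Ang II) by osmotic minipump for 7 days at 1.44 mg/kg/day. The 4 wild-type libraries (WT, Mkl1+/+, Apoe-/-) and the 4 knockout libraries (KO, Mkl1-/-, Apoe-/-) fall into 2 experiments, each with 2 WT and 2 KO libraries. WT 1, WT 2, KO 5 and KO 6 form experiment 1, and WT 3, WT 4, KO 7 and KO 8 form experiment 2. All mice carried the Apoe knockout and all received Ang II, and Mkl1 was deleted in every cell of the KO mice rather than in macrophages alone. The study counts each library as a replicate of BMDMs from WT or KO mice, but no label names the mouse behind a library, so p-values measure the spread between these libraries, which may be technical.

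NF-κB is a family of transcription factors that is held in the cytoplasm by IκB proteins until Toll-like, IL-1 or TNF receptors signal through chains of ubiquitin and the IKK kinase. Many genes that NF-κB switches on encode inhibitors of that same route, and in macrophages this loop limits inflammatory output. Tnfaip3 encodes A20, a ubiquitin-editing enzyme. Tnip1, Tnip2 and Tnip3 encode ABIN-1, ABIN-2 and ABIN-3, adaptors that bind A20. Cyld encodes a deubiquitinase and Irak3 encodes IRAK-M, an IRAK family member that damps Toll-like and IL-1 receptor signals. Zfp36 (tristetraprolin, TTP) and Zc3h12a (regnase-1) act later, on the mRNAs of cytokines, which they bring to decay or cut. Tnfaip2 and Gpr132 are not brakes in this textbook sense. Tnfaip2 is a TNF-induced gene linked to tunnelling nanotubes, and Gpr132 encodes a G protein-coupled receptor related to the proton-sensing receptors.

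The promoters of 4 of the genes that were lower in KO than in WT in both experiments are shown, as examples of 2 motifs. Zc3h12a, with neither motif in its window, and Tnfaip2, with the NF-κB consensus, were also lower in both and are not shown. Cyld and Gpr132 hold the NF-κB consensus and were not lower in both. The sequences are from RefSeq (GRCm38.p6), written 5′ to 3′ on the strand of the gene, and capitals mark a match to the NF-κB consensus in Tnfaip3, Tnip1 and Tnip3 and a match to the CArG box, the motif of the MKL1 partner SRF, in Zfp36. The first 3 end at the base before the RefSeq transcript start and the fourth covers the bases from 68 to 39 before it.
Tnfaip3, chr10:19015411-19015546, minus strand: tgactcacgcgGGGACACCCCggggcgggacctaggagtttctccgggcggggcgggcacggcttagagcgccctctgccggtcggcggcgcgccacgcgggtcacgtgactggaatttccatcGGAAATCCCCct
Tnip1, chr11:54962941-54963100, minus strand: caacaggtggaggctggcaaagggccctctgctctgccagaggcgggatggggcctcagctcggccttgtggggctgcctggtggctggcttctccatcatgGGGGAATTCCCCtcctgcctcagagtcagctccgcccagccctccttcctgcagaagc
Tnip3, chr6:65590238-65590397, plus strand: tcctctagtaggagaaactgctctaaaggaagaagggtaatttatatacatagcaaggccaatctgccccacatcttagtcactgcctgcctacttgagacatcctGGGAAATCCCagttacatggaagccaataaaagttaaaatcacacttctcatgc
Zfp36, chr7:28379267-28379296, minus strand: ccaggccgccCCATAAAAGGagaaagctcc
By GENCODE M21 the Tnip1 stretch lies outside its gene model. The Tnfaip3 and Tnip3 stretches lie within the gene but in no exon, and the Zfp36 stretch overlaps an exon of a transcript that starts further upstream.

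Windows from 250 bases before to 50 bases after each RefSeq start were searched on both strands in all 32851 windows of the table, 12 of which belong to the 10 genes. The NF-κB consensus was found in 6 of the 10 genes, against 8.46% of all windows. It lay from 12 to 3 and from 125 to 116 bases before the start of Tnfaip3, from 54 to 45 bases before that of Tnip3, and in overlapping copies from 58 to 47 bases before that of Tnip1. Tnfaip2 held it from 24 to 15 bases, Gpr132 from 88 to 79 bases and Cyld from 155 to 146 bases before the start. No match was found in the windows of Tnip2, Zc3h12a, Irak3 or Zfp36. For Tnip1, Tnfaip2, Gpr132 and Zc3h12a the 50 bases from the RefSeq start were not found whole in a GENCODE transcript of the gene. Distances for these genes hold for the RefSeq start alone. With a looser form, which fixes only the run of G at one end and the pair of C at the other, 9 genes and 50.8% of all windows matched. With GGGANTTTC, a rarer form that asks for TTTC and not for the closing pair of C, only Cyld among the 10 and 1.11% of all windows matched. A consensus match can therefore fail this form without being a weak match. The CArG box was found in Zfp36 alone of the 10 genes and in 1.63% of all windows. The AP-1 motif TGANTCA was found in Tnfaip3 alone, from 136 to 130 bases before the start, and in 7.81% of all windows. A match describes the letters only, and no binding was measured.

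**Figure D1:**
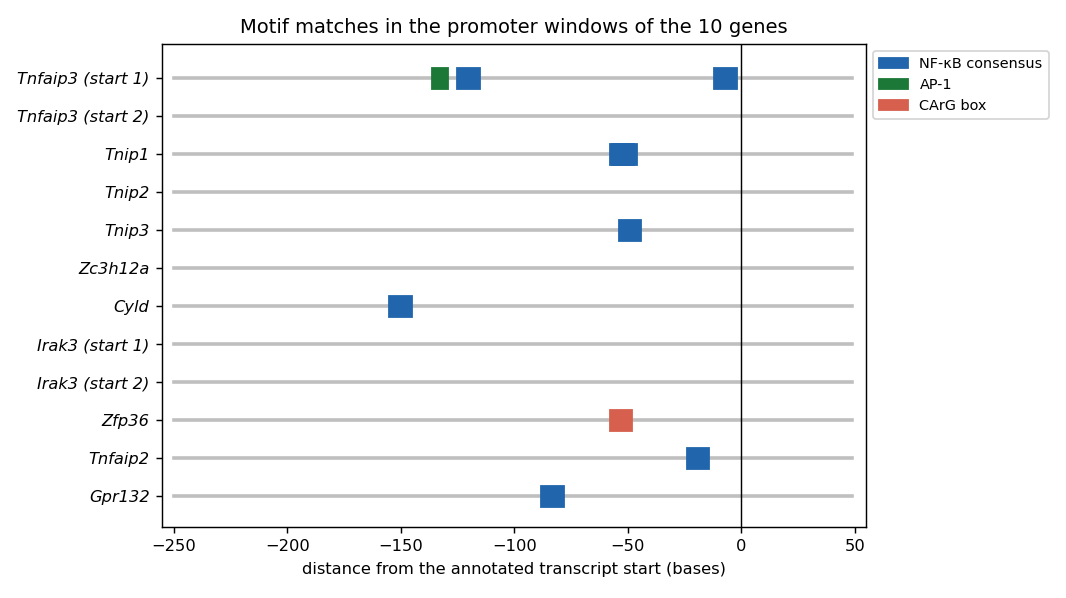
Motif matches (coloured boxes) in the 12 promoter windows of the 10 genes (grey lines), plotted by distance from the RefSeq transcript start in bases. NF-κB consensus matches lie before the start in 6 genes, within 60 bases of it in Tnip1, Tnip3 and Tnfaip2 and at 2 places in Tnfaip3.

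The libraries held between 33977799 and 41584540 counts. Levels are given as CPM, counts divided by the library size after scaling by edgeR's TMM method. The targeted gene, Mkl1, was lower in KO but not absent, at 25.6, 27.1, 26.8 and 29.6 CPM in WT 1 to 4 and 19.5, 20.9, 14.6 and 10.4 CPM in KO 5 to 8. Its log2 fold change was -0.39 in experiment 1 and -1.17 in experiment 2 (edgeR adjusted p = 0.00381 and 0.0218). The change differed between experiments by -0.79 (edgeR adjusted p = 0.0238), and over both experiments Mkl1 missed the threshold (-0.78, edgeR adjusted p = 0.0574). Which exons were removed is not given in the sources used here, and counts over the whole gene do not show whether they stem from the deleted part. The 10 macrophage markers checked were all present, with a summed level between 16030 and 36520 CPM, but 3 were lower and 6 higher in KO in experiment 1, and 2 were lower and 3 higher in experiment 2. Adgre1 (log2 fold change -2.11 and 0.91) and Itgam (-1.03 and 1.34), were lower in experiment 1 and higher in experiment 2, and Csf1r (0.82 and -1.28) was higher in experiment 1 and lower in experiment 2. These 3, picked after their values were seen, were the macrophage markers that passed in opposite directions. Summed neutrophil markers reached at most 1.52 CPM, dendritic cell markers 1.48 CPM and lymphocyte markers 0.0880 CPM. Mast cell and basophil markers reached 1.33 to 1.35 CPM in KO 5 and KO 6 and at most 0.0976 CPM elsewhere. Fibroblast markers stood apart in KO 5 and KO 6, with a summed level from 214 to 283 CPM against 2.25 to 13.8 CPM in the other 6 libraries. Of the 8 fibroblast markers 7 were tested, and all 7 were higher in KO in experiment 1 and none passed in experiment 2. The part of these marker differences in the results that follow was not tested. In bulk RNA, fewer cells that express a gene and less of its RNA per cell cannot be told apart.

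KO was compared with WT within each experiment with the quasi-likelihood test of edgeR, and p-values were adjusted by Benjamini and Hochberg's method over the 14418 genes. In experiment 1, 7 of the 10 genes were lower in KO (Tnfaip3, Tnip1, Tnip3, Zc3h12a, Irak3, Zfp36 and Tnfaip2), against 28.1% of all tested genes. One gene, Cyld, was higher, against 27% of all tested genes. In experiment 2, 7 genes were lower (Tnfaip3, Tnip1, Tnip3, Zc3h12a, Zfp36, Tnfaip2 and Gpr132), against 8.29% of all tested genes, and Irak3 was higher, against 7.52%. The median log2 fold change of the 10 genes was -1.13 in experiment 1 and -0.92 in experiment 2, while that of all tested genes was 0.01 in each. In a fit over all 8 libraries with the experiment as a term, 5 genes were lower (Tnfaip3, Tnip1, Tnip3, Zc3h12a and Zfp36), against 3.41% of all tested genes, and none was higher, against 3.72%; without the experiment term none passed, at edgeR adjusted p from 0.142 to 0.169 for those 5. At an unadjusted p below the same threshold, Tnfaip2 and Gpr132 were also lower in this fit and again none was higher, where 25.2% of all tested genes passed in either direction. Under DESeq2 no gene of the 10 was higher over both experiments either. All 4 KO libraries lay below all 4 WT libraries for 6 genes, the same 5 and Tnfaip2, against 6.25% of all tested genes. The 10 genes were chosen with earlier results of these data known, so these shares describe the set and do not test it.

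**Figure D2:**
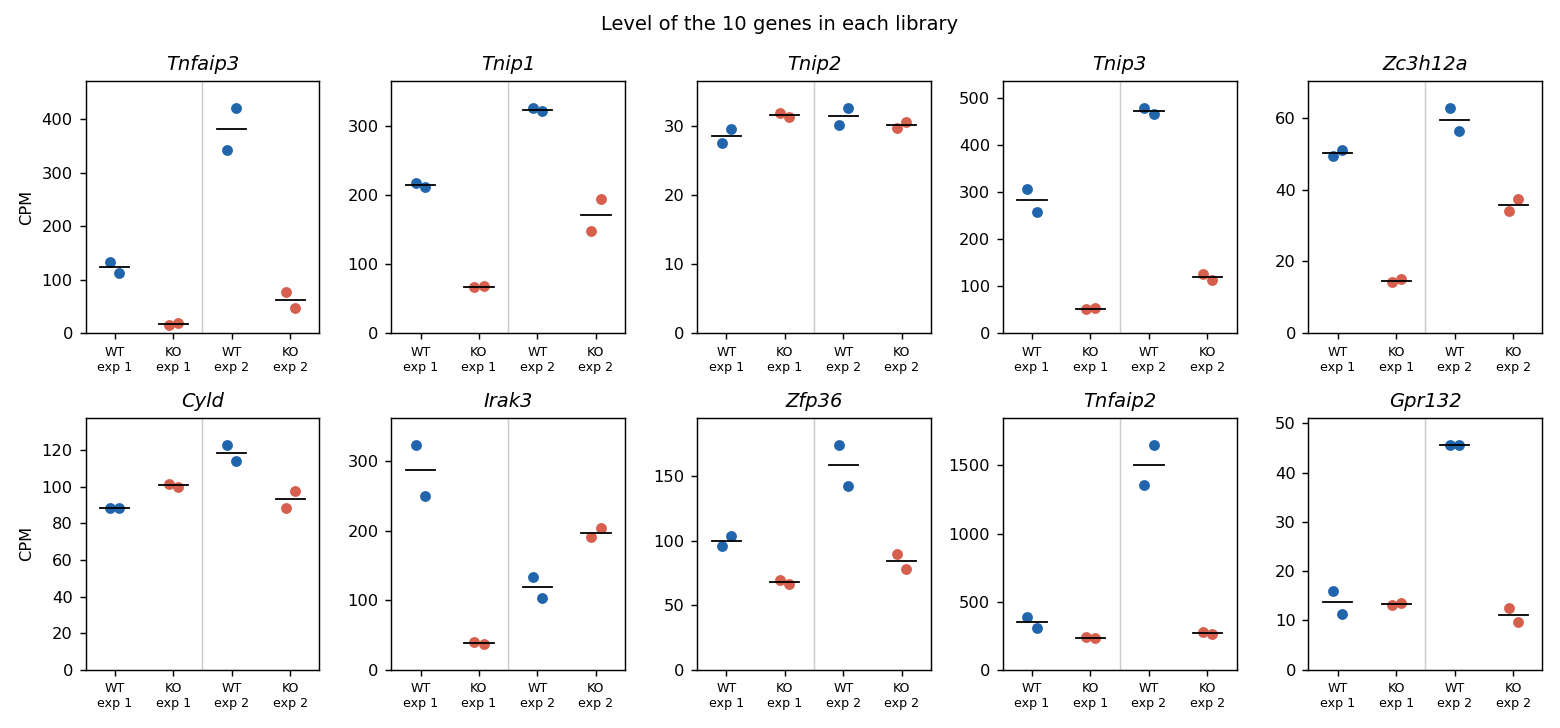
Level of each gene in every library, in CPM on a linear axis from 0, with WT in blue, KO in red, and a bar at the mean of each pair of libraries. In both experiments the KO points of Tnfaip3, Tnip1, Tnip3, Zc3h12a and Zfp36 lie below the WT points, whereas those of Irak3 lie below WT in experiment 1 and above it in experiment 2.

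Tnfaip3, the gene of A20, was lower in KO in both experiments. Its level was 134, 112, 342 and 421 CPM in WT 1 to 4 and 15.2, 17.9, 76.0 and 46.7 CPM in KO 5 to 8. Every KO library was below every WT library, and within each genotype both libraries of experiment 2 were above those of experiment 1. KO was 7.47-fold lower in experiment 1 (log2 fold change -2.90, SE 0.12, edgeR adjusted p = 1.17e-05) and 6.22-fold lower in experiment 2 (-2.64, SE 0.28, edgeR adjusted p = 0.0107). The difference between these changes was 0.25 on the log2 scale (edgeR adjusted p = 0.556), with a 95% confidence interval from -0.50 to 1.01. Over both experiments the log2 fold change was -2.76 (SE 0.19, edgeR adjusted p = 0.000940).

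Among the A20-binding adaptors, Tnip3 and Tnip1 were lower in KO in both experiments and Tnip2 passed the test in neither. Tnip3 stood at 308, 257, 479 and 466 CPM in WT 1 to 4 and at 51.4, 52.8, 126 and 114 CPM in KO 5 to 8. The KO values lay well under the WT values in each experiment, by 5.47-fold in experiment 1 (log2 fold change -2.45, SE 0.09, edgeR adjusted p = 2.82e-06) and by 3.94-fold in experiment 2 (-1.98, SE 0.13, edgeR adjusted p = 0.00448). Tnip1 stood at 219, 211, 327 and 322 CPM in WT 1 to 4 and at 66.7, 68.2, 148 and 195 CPM in KO 5 to 8. The highest KO library, KO 8, came close to the lowest WT library, WT 2, but these belong to different experiments. Tnip1 was 3.21-fold lower in experiment 1 (log2 fold change -1.68, SE 0.06, edgeR adjusted p = 9.01e-07) and 1.89-fold lower in experiment 2 (-0.92, SE 0.17, edgeR adjusted p = 0.0259), and the change was smaller in experiment 2 by 0.75 on the log2 scale (edgeR adjusted p = 0.0124). Over both experiments Tnip1 had an edgeR adjusted p of 0.0103, which became 0.0508 without KO 5. For Tnip3 the changes differed by 0.46 (edgeR adjusted p = 0.0425), a call that was lost on leaving out any 1 of 6 libraries, all but WT 2 and KO 8, with adjusted p from 0.0554 to 0.118.

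Tnip2 stood at 27.5, 29.5, 30.2 and 32.6 CPM in WT 1 to 4 and at 31.8, 31.3, 29.7 and 30.6 CPM in KO 5 to 8. The groups overlapped, and the 8 libraries spanned 1.18-fold from lowest to highest, the narrowest range of the 10 genes. Its ratio of KO to WT had a 95% interval from 0.980 to 1.23 in experiment 1 and from 0.793 to 1.17 in experiment 2. Under upper-quartile scaling it was called higher in experiment 1, with a log2 fold change of 0.24 (edgeR adjusted p = 0.0245).

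The deubiquitinase gene Cyld moved little and in opposite directions. Its level was 88.5, 88.4, 123 and 114 CPM in WT 1 to 4 and 101, 100, 88.4 and 97.7 CPM in KO 5 to 8. KO was above WT in experiment 1 and below it in experiment 2, and over all 8 libraries the groups overlapped. It was 1.13-fold higher in experiment 1 (log2 fold change 0.18, SE 0.05, edgeR adjusted p = 0.0252), a call that was lost with DESeq2 (adjusted p = 0.0663) and when all 4 groups were fitted together, with all libraries kept (edgeR adjusted p = 0.0997) and without any 1 of the 4 (from 0.234 to 0.327). In experiment 2 its log2 fold change was -0.35 (SE 0.11, edgeR adjusted p = 0.102), which passed when all 4 groups were fitted together (adjusted p = 0.0149). The changes in the 2 experiments differed by -0.53 (edgeR adjusted p = 0.00880), or adjusted p = 0.0503 without WT 1.

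Irak3, the gene of IRAK-M, changed in opposite directions in the 2 experiments. Its level was 324, 250, 133 and 104 CPM in WT 1 to 4 and 39.7, 37.6, 190 and 203 CPM in KO 5 to 8. In WT the libraries of experiment 1 were the higher ones, by 2.43-fold on average, while in KO those of experiment 2 were 5.09-fold above those of experiment 1. KO was 7.49-fold lower than WT in experiment 1 (log2 fold change -2.90, SE 0.14, edgeR adjusted p = 4.02e-05) and 1.67-fold higher in experiment 2 (0.74, SE 0.16, edgeR adjusted p = 0.0373). The difference of 3.63 on the log2 scale was the largest of the 10 (SE 0.22, edgeR adjusted p = 0.000145). Over both experiments it did not pass (log2 fold change -1.08, SE 0.81, edgeR adjusted p = 0.461), although the average of the 2 opposite changes passed when all 4 groups were fitted together (-1.08, edgeR adjusted p = 0.000664). On leaving out 1 library the value of the fit with the experiment term ranged from -1.78 (without WT 4) to -0.40 (without KO 5 or KO 6) and did not pass. The counted gene Tmbim4 overlaps Irak3 on the opposite strand. Tmbim4 stood between 43.0 and 65.5 CPM in the 8 libraries, and the strand setting of the counting is not given in the sources used here, so reads of the pair may not be fully separated.

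Both genes that act on cytokine mRNAs were lower in KO in each experiment. Zc3h12a stood at 49.4, 51.1, 62.8 and 56.4 CPM in WT 1 to 4 and at 14.2, 15.1, 34.1 and 37.3 CPM in KO 5 to 8. The WT libraries were close to each other, and the KO libraries of experiment 1 were the lowest. KO was 3.46-fold lower in experiment 1 (log2 fold change -1.79, SE 0.07, edgeR adjusted p = 1.67e-06) and 1.67-fold lower in experiment 2 (-0.74, SE 0.11, edgeR adjusted p = 0.0200), and these changes differed by 1.04 (edgeR adjusted p = 0.00101). Its call over both experiments (edgeR adjusted p = 0.0210) was lost without WT 1, WT 2, KO 5, KO 6 or KO 7, with adjusted p from 0.0560 to 0.0777.

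Zfp36 stood at 95.9, 104, 174 and 143 CPM in WT 1 to 4 and at 69.2, 66.1, 89.5 and 78.3 CPM in KO 5 to 8. All KO values were below all WT values, with the highest KO library, KO 7, near the lowest WT library, WT 1. KO was 1.49-fold lower in experiment 1 (log2 fold change -0.57, SE 0.06, edgeR adjusted p = 0.000153) and 1.89-fold lower in experiment 2 (-0.92, SE 0.15, edgeR adjusted p = 0.0213). Without WT 2 or KO 6 the first call was lost (adjusted p = 0.0587 and 0.0573), and the call over both experiments (edgeR adjusted p = 0.0144) was lost without WT 2 or KO 7 (adjusted p = 0.0502 and 0.0544). The difference between the experiments, -0.36 with a 95% interval from -0.74 to 0.03, did not pass (edgeR adjusted p = 0.119), though it did without WT 4 (adjusted p = 0.0324).

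The WT libraries of Tnfaip2 and Gpr132 were higher in experiment 2 than in experiment 1, by 4.33-fold and 3.34-fold, as were those of Tnfaip3, by 3.11-fold, but the KO libraries of Tnfaip2 and Gpr132 differed less, with ratios of experiment 2 to experiment 1 of 1.14 and 0.836 against 3.71 for Tnfaip3. Tnfaip2 stood at 390, 304, 1356 and 1652 CPM in WT 1 to 4 and at 238, 233, 274 and 262 CPM in KO 5 to 8. The KO libraries were nearly level across the experiments, and all lay below the WT libraries. The KO against WT change was 1.49-fold lower in experiment 1 (log2 fold change -0.57, SE 0.12, edgeR adjusted p = 0.00990) and 5.61-fold lower in experiment 2 (-2.49, SE 0.17, edgeR adjusted p = 0.00461), with a difference of -1.93 (edgeR adjusted p = 0.000680). The first call was lost without WT 1, KO 5 or KO 6 (adjusted p = 0.128, 0.0874 and 0.0980), and without WT 1 its log2 fold change was -0.37. Over both experiments it missed the threshold (edgeR adjusted p = 0.0700) but passed with DESeq2 (adjusted p = 0.000893).

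Gpr132 stood at 15.9, 11.4, 45.7 and 45.5 CPM in WT 1 to 4 and at 13.1, 13.6, 12.6 and 9.71 CPM in KO 5 to 8. In experiment 1 the KO libraries lay between the WT libraries, whereas in experiment 2 both were far below. The ratio of KO to WT in experiment 1 had a 95% interval from 0.744 to 1.26 (log2 fold change -0.05, SE 0.16, edgeR adjusted p = 0.813), and its sign turned without WT 1 (0.22). KO was 4.08-fold lower in experiment 2 (log2 fold change -2.03, SE 0.16, edgeR adjusted p = 0.00565), and the changes differed by -1.99 (edgeR adjusted p = 0.00112). Gpr132 had the lowest counts of the 10, down to 389 in WT 2.

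**Figure D3:**
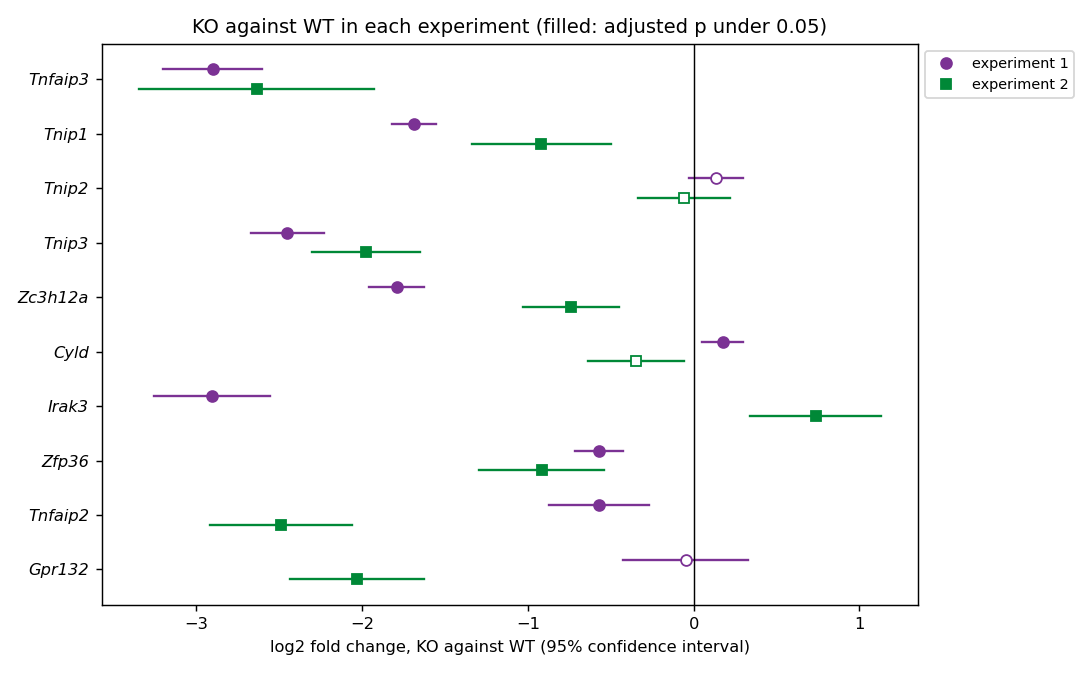
Log2 fold change of KO against WT for each gene in experiment 1 (circles) and experiment 2 (squares), with 95% confidence intervals as lines and filled symbols at an adjusted p under 0.05. The intervals of the experiments are far apart for Irak3, Tnfaip2 and Gpr132 and overlap for Tnfaip3, Tnip2, Tnip3 and Zfp36.

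The test of the difference between experiments was passed by 7 of the 10 genes, against 41.6% of all tested genes. In 4 of them (Tnip1, Tnip3, Zc3h12a and Irak3) the KO value relative to WT was higher in experiment 2, and in 3 (Cyld, Tnfaip2 and Gpr132) it was lower. Tnfaip3, Tnip2 and Zfp36 did not pass.

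Levels were compared between genes as CPM per kilobase of annotated exon, within each experiment, since the order differed between experiments. In WT of experiment 1 Irak3 (mean of 2 libraries 78.1 CPM per kb), Tnfaip2 (69.6) and Tnip1 (60.7) were the highest, then Zfp36 (28.7), Tnip3 (25.9), Zc3h12a (17.4), Tnfaip3 (17.0), Tnip2 (10.6), Cyld (7.03) and Gpr132 (5.03 CPM per kb). The libraries of neighbours in this order overlapped for Irak3 with Tnfaip2, Tnfaip2 with Tnip1, Zfp36 with Tnip3 and Zc3h12a with Tnfaip3. In WT of experiment 2 Tnfaip2 stood at 302 and Tnip1 at 91.6 CPM per kb, followed by Tnfaip3 (52.8), Zfp36 (45.7), Tnip3 (43.3), Irak3 (32.2), Zc3h12a (20.7), Gpr132 (16.8), Tnip2 (11.7) and Cyld (9.41 CPM per kb). Here Zfp36 overlapped with both Tnfaip3 and Tnip3, and no other neighbours did. In KO of experiment 1 Tnfaip2 led at 47.2 CPM per kb, followed by Zfp36 (19.5), Tnip1 (19.1), Tnip2 (11.8), Irak3 (10.5), Cyld (8.01), Zc3h12a (5.07), Gpr132 (4.92), Tnip3 (4.77) and, lowest, Tnfaip3 (2.29 CPM per kb). Zfp36 overlapped with Tnip1, and Gpr132 with Zc3h12a and with Tnip3. In KO of experiment 2 Tnfaip2 (53.8), Irak3 (53.6) and Tnip1 (48.5 CPM per kb) overlapped at the top. Zfp36 (24.2), Zc3h12a (12.4), Tnip2 (11.2), Tnip3 (10.98), Tnfaip3 (8.48), Cyld (7.40) and Gpr132 (4.11 CPM per kb) followed, and the neighbours from Tnip2 to Cyld overlapped. Exon length counts every annotated transcript, which lowers the value of genes with long alternative models.

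The pattern of Tnfaip3 over the 8 libraries was compared with 9072 genes of mean log2 CPM of at least 3, as a description, since the libraries share genotype and experiment. By Pearson's r the 5 most like it were Hdgf (Pearson r = 0.996), Itga5 (0.996), Tnf (0.994), Nr1h3 (0.991) and Slc25a25 (0.991). Of the other 9 genes, Tnip3 was the most like it (r = 0.983, place 26), followed by Tnip1 (0.952), Zfp36 (0.946) and Zc3h12a (0.937). Tnfaip2 (0.868), Gpr132 (0.758), Irak3 (0.562), Cyld (0.388) and Tnip2 (-0.17) were less alike by this measure. By Spearman's rho, for which 28 genes reached 1, Nr1h3, Slc25a25, Tnip3 and Tnfaip2 shared a value of 0.976, above Tnip1 at 0.952 and Zfp36 and Zc3h12a at 0.929.

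Genes that stand around these 10 in the pathway were counted from lists chosen with earlier results of these data known. The counts therefore describe the lists and do not test them. Of all tested genes, 28.1% were lower and 27% higher in experiment 1, and 8.29% and 7.52% in experiment 2. Of 6 IκB genes, whose products hold NF-κB in the cytoplasm or bind it in the nucleus, 4 were lower in KO in experiment 1 and 4 in experiment 2, with none higher. Nfkbia, the gene of IκBα, was lower in both (log2 fold change -1.91 and -2.67, edgeR adjusted p = 2.84e-06 and 0.00327), as was Nfkbib (-0.47 and -0.90, edgeR adjusted p = 0.00156 and 0.0162). Each of the other IκB genes was lower in 1 experiment alone. In this list and others of more than 5 genes, the 2 named had the smallest p over both experiments. This choice favours genes that changed alike in both. Of 5 NF-κB subunit genes, 4 were lower in experiment 1 and all 5 in experiment 2. Relb changed by -0.81 and -2.01, Rel by -0.43 and -1.14, Nfkb1 by -0.30 and -1.29 and Nfkb2 by -0.23 and -2.65, while Rela had 0.08 in experiment 1, where it did not pass, and -0.60 in experiment 2. All 5 subunit genes passed the test of the difference between experiments, each with the lower value in experiment 2, against 41.6% of all tested genes in either direction.

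Of 13 genes that carry the signal from receptors to NF-κB, 6 were lower and 3 higher in experiment 1 (all tested genes 28.1% and 27%), and 4 were lower and none higher in experiment 2 (8.29% and 7.52%). Irak2, a kinase of the same family as Irak3, was lower in both (log2 fold change -1.66 and -1.60, edgeR adjusted p = 1.14e-06 and 0.00727), and so was the adaptor Traf2 (-0.31 and -1.16, edgeR adjusted p = 0.00930 and 0.0108). Of 10 partners of A20 and CYLD, 5 were lower and 1 higher in experiment 1, and 1 was lower and 1 higher in experiment 2. N4bp1 was lower in both (-0.91 and -0.96, edgeR adjusted p = 9.67e-06 and 0.0307), whereas Tax1bp1, an A20 adaptor, was lower in experiment 1 (-0.29, edgeR adjusted p = 0.00357) and had -0.06 in experiment 2 (edgeR adjusted p = 0.760). The linear ubiquitin ligase genes Rnf31 (0.64 and -0.98) and Rbck1 (0.56 and -0.58) were higher in experiment 1 and lower in experiment 2, and Sharpin (0.00 and 0.03) passed in neither.

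Of 11 relatives of Zfp36 and Zc3h12a and other mRNA decay genes, 2 were lower and 3 higher in experiment 1. These counts are near the shares of all tested genes, 28.1% and 27%. In experiment 2, 2 were lower and 2 higher (all tested genes 8.29% and 7.52%). Zc3h12c, a relative of Zc3h12a, was lower in both (log2 fold change -2.91 and -1.50, edgeR adjusted p = 2.03e-06 and 0.0147), whereas Zfp36l2, a relative of Zfp36, was higher in both (0.95 and 0.74, edgeR adjusted p = 9.74e-06 and 0.0182). Of 11 listed mRNAs that TTP binds or regnase-1 cuts, 9 were tested and 8 were lower in KO in each experiment. Tnf stood at means of 310 and 1520 CPM in WT and 23.5 and 126 CPM in KO (log2 fold change -3.73 and -3.59), and Cxcl2 changed by -5.94 and -4.57. Of 10 other brakes on Toll-like and IL-1 receptor signalling, 9 were tested, 3 were lower and 4 higher in experiment 1, and 2 were lower and 1 higher in experiment 2. The phosphatase gene Ptpn6 was lower in both experiments (-0.81 and -0.65, edgeR adjusted p = 2.46e-05 and 0.0484) and the lipid phosphatase gene Inpp5d was higher in both (0.23 and 0.84, edgeR adjusted p = 0.0144 and 0.0173).

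Of the receptors related to Gpr132, Gpr65 was the one with a clear level, at means of 24.7 and 90.6 CPM in WT and 32.8 and 26.1 CPM in KO. It was higher in KO in experiment 1 (log2 fold change 0.40, edgeR adjusted p = 0.0183) and lower in experiment 2 (-1.79, edgeR adjusted p = 0.0182). Gpr4, below 1 CPM, was lower in experiment 1 alone (edgeR adjusted p = 0.0392). Of the 4 Exoc3 relatives of Tnfaip2, 3 were tested. Exoc3l4 was lower in both experiments (-0.72 and -1.73, edgeR adjusted p = 0.00848 and 0.0132), and Exoc3 (-0.04 and -0.13) and Exoc3l (0.75 and 0.42) passed in neither.

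**Figure D4:**
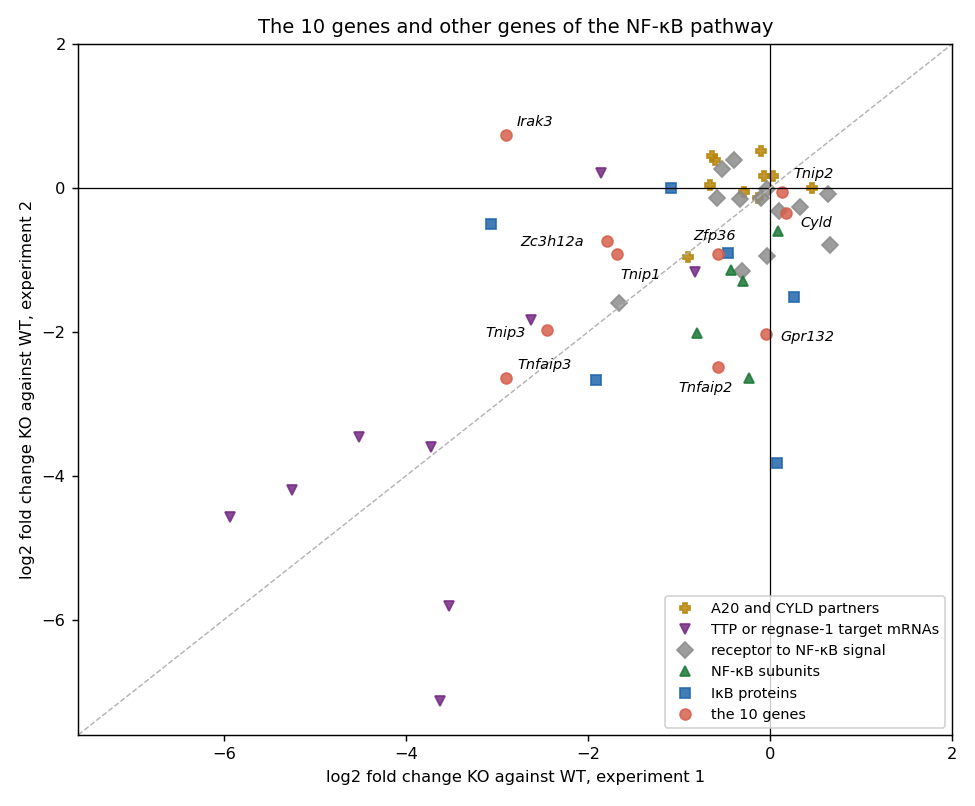
Log2 fold change of KO against WT in experiment 1 (horizontal) and experiment 2 (vertical) for the 10 genes (red, named) and for 5 lists of pathway genes. The dashed line marks equal change. Tnfaip3 and Tnip3 lie near that line with Irak2 and Tnf, and Irak3 lies far above it. Tnfaip2 and Gpr132 lie below it, nearest to Nfkb2 and Relb among the NF-κB subunit genes. Rela, Rel and Nfkb1 lie below it too but closer to it.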

How the data were processed

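Polyadenylated RNA was sequenced from 8 libraries made with a stranded kit. The authors deposited gene-level counts and, beside them, a normalized signal (counts divided by a size factor per library), in 1 table per experiment and kind; only the counts entered tests. The submitters' processing notes name STAR 2.7.0f, Subread 1.6.4, featureCounts, DESeq2 1.22.1 and GRCm38. The strand setting is not given in the sources used here. The deposited tables held 0 columns without a sample. Genes passing filterByExpr over all 8 libraries were tested with edgeR 4.0.16 (TMM, robust quasi-likelihood, R 4.3.3), within each experiment as the submitters compared them, and over both with the experiment as a term and, separately, its product with genotype. Tested genes held 99.88 to 99.95% of counts. The steps were tested on simulated data. Called means a Benjamini-Hochberg adjusted p under 0.05. The members and lists were chosen with earlier results of these data known. Named are all 10 members, Mkl1, the 2 genes per list with the smallest p over both experiments (every gene of lists of at most 5, except 1 that is not reported here), and the 5 genes most like Tnfaip3. Cell marker lists are given by summed level and, for macrophage and fibroblast markers, counts of calls. Exon lengths are from GENCODE M21, where Mkl1 is named Mrtfa, and promoters from RefSeq (GRCm38.p6). Alternatives were DESeq2 1.42.0, limma-voom (limma 3.58.1), upper-quartile scaling, other filters and thresholds, all 4 groups in 1 fit, no experiment term, and each library left out. A fit without 1 library pooled the spread of all groups, so that a lone library was assumed to vary like the others. Replicate libraries differed by more than sampling noise, with a chi-square per gene from 12.3 to 80.2.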

Additional observations from a re-analysis of the deposited data

Results flagged for a closer look

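The KO against WT change differed between experiment 1 and experiment 2, by the interaction term in edgeR at an adjusted p under 0.05, for 7 of the 10 genes, against 41.6% of all tested genes. On the log2 scale, experiment 2 minus experiment 1, the difference was 3.63 for Irak3, 1.04 for Zc3h12a, 0.75 for Tnip1 and 0.46 for Tnip3. It was -1.99 for Gpr132, -1.93 for Tnfaip2 and -0.53 for Cyld. Only Irak3 among these had changes that passed the test in opposite directions in the 2 experiments. What set the 2 experiments apart is not given in the sources used here.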

How the results depend on the processing

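Of 480 changes of single genes recomputed under another fit, scaling, filter or set of libraries, 435 kept their direction and their side of the threshold, 32 lost the call, 9 gained it and 4 changed sign. The sign changes were Gpr132 in experiment 1 under upper-quartile scaling (0.0515) and without WT 1 (0.22, range -0.25 to 0.22), Cyld over both experiments without KO 7 (0.0107, range -0.14 to 0.0107) and the difference between experiments of Tnfaip3 without KO 7 (-0.10, range -0.10 to 0.56). In experiment 1 the number of the 10 genes that were higher, 1, became 0 at an adjusted p under 0.01, at 2-fold, with DESeq2, without the filter, with 4 groups in 1 fit and on leaving out any library (range 0 to 0), and 2 under upper-quartile scaling. In experiment 2 the 7 lower genes became 3 at an adjusted p under 0.01 and 4 at 2-fold, and the 1 higher gene became 0 in both. Over both experiments the 5 lower genes became 2 at an adjusted p under 0.01, 8 with 4 groups in 1 fit, 0 without the experiment term and 3 to 5 without 1 library. The rarer form GGGANTTTC, which is not a subset of the NF-κB consensus, matched 1 gene in place of 6. Within an experiment, a fit without 1 library also pools the spread of all groups, so its counts are to be set beside those with 4 groups in 1 fit and all libraries (5974 in experiment 1 and 4899 in experiment 2). All genes called numbered 7948 in experiment 1 (2231 at 2-fold, 2830 to 3483 without 1 library), 2279 in experiment 2 (234 at an adjusted p under 0.01, 1274 at 2-fold, 4899 with 4 groups, 3443 to 4951 without 1 library), 1027 over both (208, 331, 4811 and 243 to 1100 in the same order, 2492 with DESeq2, 4 without the experiment term) and 5996 for the difference between experiments (3247 at an adjusted p under 0.01, 3935 to 6508 without 1 library). Genes with all KO below all WT numbered 901, 616 in CPM without TMM and 1401 when levels were set relative to the WT mean of the experiment. Upper-quartile scaling moved the share of higher calls from 48.97% to 59.83% in experiment 1 and from 47.56% to 53.51% in experiment 2. Over both experiments the share moved from 52.19% to 67.26%. The cause of these shifts was not tested. Gpr132 had the lowest counts of the 10. No paired analysis was possible because the labels number WT 1 to 4 and KO 5 to 8.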
